A study of Mus musculus with 3 samples.

Results

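The Toll-like receptors are the membrane receptors through which macrophages sense microbial molecules, and 10 of their genes (*Tlr1*, *Tlr2*, *Tlr3*, *Tlr4*, *Tlr5*, *Tlr6*, *Tlr7*, *Tlr8*, *Tlr9* and *Tlr13*) were followed on the arrays, taken as all gene probes that carry 1 of these symbols. They are 10 of 26840 named genes and hold 21 of 56605 gene probes. RAW macrophages, an established mouse cell line, had received *L. rhamnosus* CRL1505 or *L. plantarum* CRL1506 at 50000000 cells/mL for 24 h, were washed, and were then given LPS at 50 ng/mL (CRL1505 + LPS and CRL1506 + LPS), or had received LPS without lactobacilli (LPS). The design text gives 12 h of LPS and the sample descriptions 3 h. All groups carried LPS, and non-stimulated macrophages were not analysed here, so that each value compares lactobacilli and then LPS with LPS alone. There was 1 array for each condition and therefore no replicate check, no test and no p-value.

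TLR1, TLR2, TLR4, TLR5 and TLR6 act at the cell surface. TLR2 pairs with TLR1 or TLR6 to bind bacterial lipopeptides, as found in the envelope of Gram-positive bacteria such as lactobacilli, TLR4 with its partner MD-2 binds LPS, and TLR5 binds flagellin. TLR3, TLR7, TLR8, TLR9 and TLR13 act in endosomes on nucleic acids. All except TLR3 signal through the adapter MyD88, while TLR3 uses TRIF, and TLR4 uses both.

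Levels are given as the processed intensity of a probe divided by its array's 75th percentile over gene spots. That percentile stood at 743.1 in the LPS array, 517.0 in CRL1505 + LPS and 697.9 in CRL1506 + LPS. A level compares 1 probe between arrays and says nothing of 1 gene against another. A gene was represented by its brightest probe, and a ratio of 2-fold is 1 on the log2 scale. The share of gene spots well above background was 54.5%, 48.5% and 55.3%, respectively. The median SD of the log2 ratio between different probes of a gene was 0.23 for CRL1505 + LPS against LPS, 0.21 for CRL1506 + LPS against LPS and 0.32 between the strains, and the median SD between repeated spots of a probe was at most 0.05. Neither holds any variation between cultures. One slide and scan run held the arrays of LPS and CRL1506 + LPS, and another that of CRL1505 + LPS, so in any comparison with CRL1505 + LPS the effects of strain and of slide cannot be told apart. The 7 macrophage markers examined (*Cd68*, *Csf1r*, *Itgam*, *Lyz2*, *Adgre1*, *Ptprc* and *Spi1*) were well above background on all arrays, with a summed level of 497 to 623. Of 15 markers of T cells, B cells, neutrophils, epithelial cells and fibroblasts, 6 were well above background on no array and 5 on all of them, namely those of T cells (*Cd3e*, *Cd4*), B cells (*Ms4a1*) and 2 of neutrophils. Their summed levels were 2.60 to 2.83 for T cells, 0.12 to 0.20 for B cells and 1.68 to 3.00 for neutrophils. A sum, like a level, can be compared between arrays only and does not rank the cell types.

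In CRL1505 + LPS, 3 of the 9 receptor genes that could be compared (*Tlr1*, *Tlr3* and *Tlr6*) were at least 2-fold higher than in LPS alone, and 2 (*Tlr2* and *Tlr13*) were at least 2-fold lower. Of 15609 genes compared on these arrays, 9.92% passed 2-fold upward and 8.41% downward. The median log2 ratio of the receptors was 0.76 against 0.01 for all genes, and the median absolute log2 ratio was 1.12 against 0.41. In CRL1506 + LPS, 1 of 10 receptors (*Tlr3*) was at least 2-fold higher and 0 were at least 2-fold lower, where 5.67% and 3.52% of 16284 genes were. There the median was -0.27 against -0.06 for all genes, and the median absolute value 0.35 against 0.26. These medians rest on the brightest probe of each gene. For CRL1506 the mean over probes raised *Tlr4* (-0.10), *Tlr7* (-0.08), *Tlr8* (0.23) and *Tlr13* (-0.10), and lowered *Tlr1* (0.13) and *Tlr3* (0.79). For CRL1505 it raised *Tlr1* (1.16) and *Tlr3* (2.23), and lowered *Tlr4* (-0.18), *Tlr7* (0.57) and *Tlr8* (0.31). The comparisons with LPS share the LPS array. Between the strains, *Tlr6*, *Tlr7* and *Tlr8* were at least 2-fold higher in CRL1505 + LPS and *Tlr13* at least 2-fold lower, which is 3 and 1 of 9 receptors, beside 9.01% and 7.46% of 15785 genes. With 9 or 10 genes these counts describe the family on these arrays and no more.

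**Figure D1:**
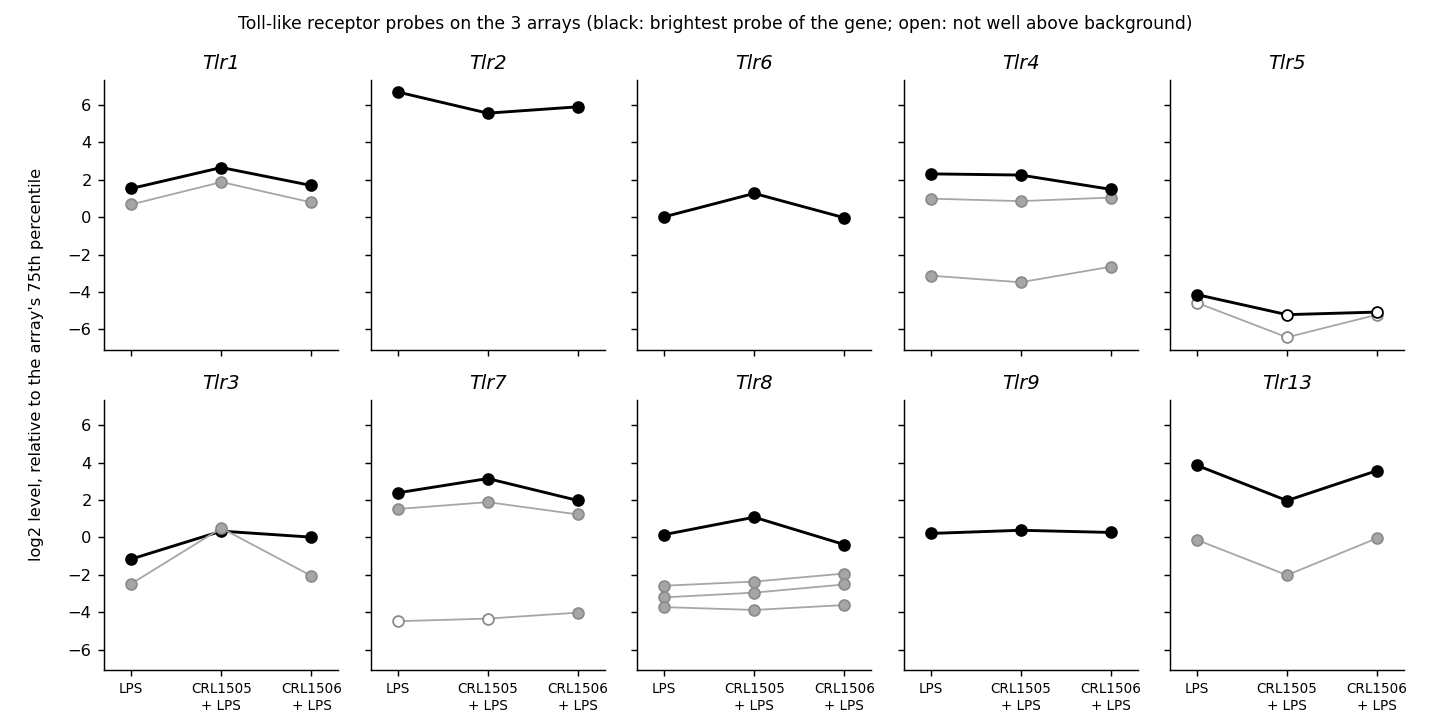
Log2 level of every Toll-like receptor probe on the LPS, CRL1505 + LPS and CRL1506 + LPS arrays, relative to the 75th percentile of each array, with 1 panel for each gene. Black lines mark the brightest probe, grey lines other probes and open points values not well above background, and *Tlr2* and *Tlr13* are lowest, and *Tlr1*, *Tlr3* and *Tlr6* highest, on the CRL1505 + LPS array.

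*Tlr2*, the shared subunit of the lipopeptide receptors, had a single probe (chr3:83640344-83640403 on mm9, minus strand), shown here because the value of the gene rests on it. The hexamer AATAAA, which has the letters of the usual polyadenylation signal, is in capitals wherever a printed probe holds it. It is present in 4 of the 21 receptor probes and in 9.77% of all probes. The capitals mark letters only and do not show a polyadenylation site. Whether they lie in a coding or an untranslated stretch was not examined.

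Tlr2 A_51_P452629: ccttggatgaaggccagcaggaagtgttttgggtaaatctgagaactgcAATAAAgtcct

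The level of *Tlr2* was 104 on the LPS array, 47.5 with CRL1505 and 60.1 with CRL1506. Both strains lay under LPS alone, by 2.19-fold with CRL1505 (log2 ratio -1.13) and by 1.73-fold with CRL1506 (-0.79). The difference between the strains was -0.34, about as large as the SD between probes. No *Tlr2* spot was saturated. When arrays were shifted by their medians, the ratio for CRL1505 was -0.84 and that between the strains turned to 0.16.

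The partners of TLR2 went the other way with CRL1505. *Tlr1* and *Tlr6* lie next to each other on chromosome 5 with 0 protein-coding genes between them, and their probes are 28371 bases apart. *Tlr1* was read by a pair of probes, at chr5:65316115-65316174 and chr5:65315994-65316053 (mm9, minus strand), and *Tlr6* by 1, at chr5:65344365-65344424. The *Tlr1* probe that is printed whole is the dimmer one, which does not represent the gene, and 30 bases are given for *Tlr6*. Neither was compared with the transcript of the other gene. The letters therefore do not show whether a probe also reads its related neighbour.

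Tlr1 A_51_P495581: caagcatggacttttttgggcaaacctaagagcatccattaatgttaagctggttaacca
Tlr6 A_52_P117393: ttatgaagttagccttagtcaatgaggatg

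The level of the brighter *Tlr1* probe was 2.90 with LPS, 6.32 with CRL1505 + LPS and 3.24 with CRL1506 + LPS. Its log2 ratio to LPS was 1.12 for CRL1505 and 0.16 for CRL1506. The other probe, with levels of 1.61, 3.69 and 1.73, gave 1.20 and 0.11. *Tlr6* had levels of 1.01, 2.42 and 0.98, and ratios of 1.26 and -0.05. For both genes the LPS and CRL1506 + LPS arrays differed by less than the SD between probes, and the CRL1505 + LPS array was 1.95-fold higher than CRL1506 + LPS for *Tlr1* and 2.47-fold higher for *Tlr6*. Scaling to the spike-in probes took both under 2-fold against LPS, to 0.61 for *Tlr1* and 0.75 for *Tlr6*, and in the deposited log2 table *Tlr1* was at 0.98.

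*Tlr4*, the receptor of LPS itself, was read by 3 probes that did not give 1 answer. The brightest (chr4:66591199-66591258, plus strand) belongs to an Ensembl transcript and lies 87475 bases downstream of the nearer of the other probes. These, at chr4:66500344-66500403 and chr4:66503724-66503782, start at bases 619 and 3999 of the RefSeq transcript and are called upstream and downstream below. The first is given whole and the others in part, since the reading of the gene depends on which is taken.

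Tlr4 A_55_P2603039: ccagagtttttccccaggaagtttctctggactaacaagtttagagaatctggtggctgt
Tlr4 A_51_P300806: tgtgatagggctttaaatagttgagctaat
Tlr4 A_55_P2714823: tcttccatagtttgtgcttcatgtccctgc

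The brightest probe had levels of 5.00, 4.78 and 2.81 on the LPS, CRL1505 + LPS and CRL1506 + LPS arrays, with log2 ratios to LPS of -0.06 and -0.83. The downstream RefSeq probe had 1.99, 1.82 and 2.07, with -0.13 and 0.06. The upstream RefSeq probe had 0.11, 0.09 and 0.16, with -0.35 and 0.48. With CRL1505 the 3 probes lay between -0.35 and -0.06, under 2-fold. With CRL1506 they ranged from -0.83 to 0.48, so that the lower value of the brightest probe was not shared by the probes of the RefSeq transcript. After the median shift that value was -1.03. Between the strains the brightest probe gave 0.76, the downstream RefSeq probe -0.19 and the upstream one -0.83, so that the sign of the difference depended on the probe. The -0.19 was smaller than the SD between probes of 0.32. The upstream probe was the dimmest, with a log2 level of -3.48 on the CRL1505 + LPS array. The lowest value well above background on that array was -4.12.

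*Tlr5*, the flagellin receptor, was near the background. Of its 2 probes, 1 was well above background, and on the LPS array only, with a level of 0.06. It was at least 1.20-fold lower in CRL1506 + LPS, and no fold can be given for CRL1505 + LPS.

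Among the receptors of nucleic acids, *Tlr3*, which binds double-stranded RNA, was higher with both strains, by an amount that depended on the probe. Its probes lie 3383 bases apart in 1 transcript, at chr8:46495198-46495257 (upstream, from base 174) and at chr8:46481729-46481788 (downstream, from base 3557), on the minus strand of mm9. They are shown in part, as the comparison of the strains turns on them.

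Tlr3 A_55_P2921249: aaatcagaatgtacttggctttggaggttg
Tlr3 A_52_P85174: agacgtttatagAATAAAagataattgctt

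The upstream probe, on average the brighter, had levels of 0.45 with LPS, 1.26 with CRL1505 + LPS and 1.01 with CRL1506 + LPS, and log2 ratios to LPS of 1.49 and 1.17. On this probe the strains differed by 0.32. The downstream probe had levels of 0.18, 1.41 and 0.24, and ratios of 2.97 and 0.42, so that CRL1505 + LPS was 7.86-fold and CRL1506 + LPS 1.33-fold above LPS, and the strains differed by 2.56. *Tlr3* was therefore at least 2-fold higher with CRL1505 by either probe, and with CRL1506 by the upstream probe only. The upstream probe gave 0.99 for CRL1505 with the spike-in scaling and 0.97 for CRL1506 after the median shift, and the mean over the probes was 0.79 for CRL1506.

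*Tlr7* and *Tlr8* encode related endosomal receptors, of which TLR7 binds single-stranded RNA, and are neighbours on the X chromosome, with 0 protein-coding genes between them. The brightest *Tlr7* probe (chrX:163742863-163742922, minus strand) had levels of 5.22 with LPS, 8.86 with CRL1505 + LPS and 3.93 with CRL1506 + LPS. CRL1505 + LPS lay above LPS (0.76) and CRL1506 + LPS below it (-0.41), both under 2-fold, and the strains differed 2.26-fold (1.17). A second probe of that transcript, 283 bases upstream, gave 0.37 and -0.29, and a difference between the strains of 0.66. The last, on another transcript, was well above background in CRL1506 + LPS only, with a bound of 0.45 against LPS. The mean over the probes put the difference between the strains at 0.58, and the spike-in scaling put it at 0.77.

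*Tlr8* had 4 probes. The brightest (chrX:163679328-163679387) starts at base 4714 of the RefSeq transcript, and another (chrX:163680715-163680774) lies 1387 bases upstream of it. Both are shown because they put the strains in opposite order.

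Tlr8 A_51_P176893: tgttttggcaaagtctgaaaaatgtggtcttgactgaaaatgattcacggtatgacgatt
Tlr8 A_66_P131283: ttgagactataactacatcattccctcttt

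The downstream probe had levels of 1.11, 2.11 and 0.77 on the LPS, CRL1505 + LPS and CRL1506 + LPS arrays, with log2 ratios to LPS of 0.93 and -0.53 and a difference between the strains of 1.46. The upstream probe had levels of 0.11, 0.13 and 0.17, with ratios of 0.25 and 0.69 and a difference of -0.44. Another probe, 89 bases from the upstream one, had 0.22 and 0.65. The last, on an Ensembl transcript at chrX:163697346-163701688, had -0.15 and 0.11. The higher level of *Tlr8* in CRL1505 + LPS than in CRL1506 + LPS was thus found with 1 of 4 probes, and the mean over the probes gave 0.08. That probe was the brightest, and the others had levels of only 0.07 to 0.26, so the probes do not count equally. For the Ensembl probe the difference between the strains, -0.26, was smaller than the 0.39 error of its signals.

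*Tlr9*, the receptor of unmethylated CpG DNA, had levels of 1.16, 1.30 and 1.20 (chr9:106128979-106129038, plus strand). Its log2 ratios of 0.17 and 0.05 were smaller than the SD between probes, and the spike-in scaling turned both, to -0.34 and -0.05.

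*Tlr13*, a receptor of bacterial ribosomal RNA, had the largest difference from LPS among the values that represent the receptors with CRL1505. Its probes lie 952 bases apart in 1 transcript, at chrX:103354821-103354880 and chrX:103355773-103355832 (mm9, plus strand). They are shown because they gave the same ratio for CRL1505 in spite of their different brightness.

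Tlr13 A_66_P125902: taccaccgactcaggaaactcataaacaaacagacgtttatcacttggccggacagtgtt
Tlr13 A_55_P2048279: gtaagtaaccccAATAAAactcattggttc

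The brighter, downstream probe had levels of 14.5 with LPS, 3.91 with CRL1505 + LPS and 11.9 with CRL1506 + LPS, and the other had 0.91, 0.25 and 0.97. Each was 3.69-fold lower in CRL1505 + LPS than in LPS (log2 ratio -1.89 for both). For CRL1506 the ratios were -0.28 and 0.09. Against CRL1506 + LPS, CRL1505 + LPS was 3.04-fold lower on the brighter probe and 3.93-fold lower on the other. Under 12 other settings the ratio to LPS for CRL1505 lay between -2.39 and -1.59 and was past 2-fold in all 12. Those on dim probes, outlier spots and uneven spots could not move it and returned the same value. Both probes were well above background on all arrays, and no receptor spot was an outlier or uneven.

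**Figure D2:**
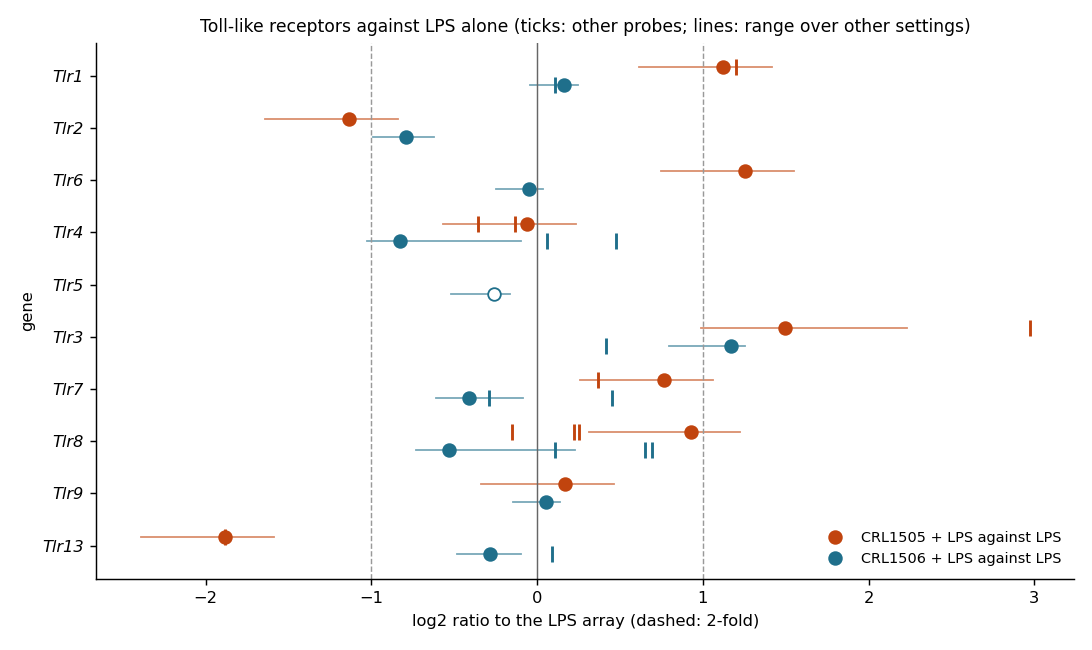
Log2 ratio of each Toll-like receptor to the LPS array for CRL1505 + LPS and CRL1506 + LPS. Points are the brightest probe of each gene (open for a bound) and ticks the other probes. Lines are the range over the 12 other settings apart from the one that kept dim probes. *Tlr13* for CRL1505 lies under the dashed 2-fold line with both probes and under every setting.

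Differences between probes of a transcript were not particular to the receptors. In 1820 transcripts with probes at least 1000 bases apart and measured on both arrays, the log2 ratio of CRL1505 + LPS to LPS at the upstream probe minus that at the downstream probe had a median of -0.24, and the upstream probe was the higher one in 30.3%. For CRL1506 + LPS against LPS the median difference was 0.19 over 2088 transcripts, with the upstream probe higher in 68.4%. Between the strains it was -0.39 over 1828 transcripts, with 24.0%. The difference between the upstream and the downstream probe was -1.48 for CRL1505 and 0.75 for CRL1506 in *Tlr3*, -0.68 and 1.22 in *Tlr8*, -0.22 and 0.42 in *Tlr4*, and -0.40 and 0.12 in *Tlr7*. In *Tlr13* it was 0.00 and 0.37. For CRL1506 all 5 receptors thus had the sign of the median transcript, and for CRL1505 4 of 5 did, with *Tlr13* at 0.00. The pairs of *Tlr7* and *Tlr13* lie less than 1000 bases apart, at 283 and 952. Over probe pairs at any distance the medians were smaller. They were -0.12 for CRL1505, with the upstream probe higher in 35.4%, and 0.05 for CRL1506, with 56.7%. Between the strains, the difference was 0.32 at the upstream and 2.56 at the downstream probe of *Tlr3*, 0.66 and 1.17 in *Tlr7*, and -0.44 and 1.46 in *Tlr8*, so that the size of the difference went with the position of the probe in these genes and its direction in *Tlr8*. The part of probe position in these results was not tested. *Tlr2*, *Tlr6* and *Tlr9*, with 1 probe each, allow no such look. This was examined after the values of the receptors had been seen.

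**Figure D3:**
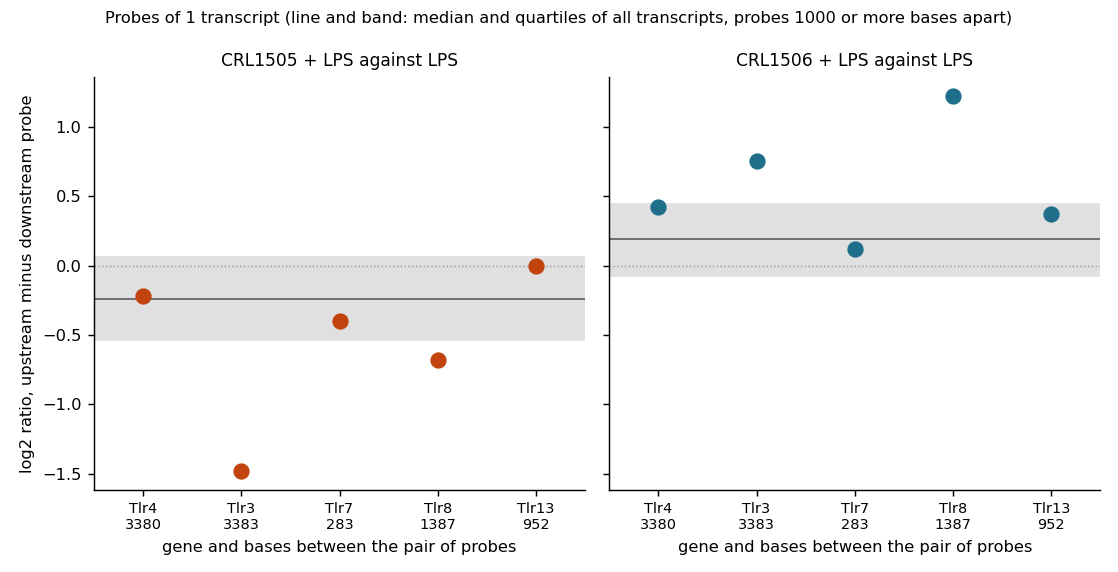
Log2 ratio to LPS at the upstream probe minus that at the downstream probe of a transcript, for the 5 receptors with such a pair, with the bases between the probes under each name. The line and the band are the median and the quartiles over all transcripts with probes at least 1000 bases apart, and *Tlr3* and *Tlr8* lie outside the band in both comparisons, on the side of the median.

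The sequences before the receptors' start sites were read for the letters of sites of factors active in macrophages. RefSeq (GRCm38.p6) gave 10 promoter entries for 8 of the receptors, and those of *Tlr4* and *Tlr7* were not used here. The 250 bases before each start were searched on both strands for letters of the interferon response element (GAAA, 2 open bases, GAAA), of the NF-κB site (GGG, 5 open bases, CC), of the core of the PU.1 site (GAGGAA) and of the STAT site (TTC, 3 open bases, GAA). Of 32851 promoters of that length, 2.98%, 45.8%, 23.3% and 7.02% held a match, respectively. *Tlr2* and *Tlr3* are shown for their NF-κB-like letters and *Tlr6* for its interferon-element-like letters, all in capitals. The windows are chr3:83841609-83841858, chr8:45410381-45410630 and chr5:64959167-64959416, all on the minus strand.

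Tlr2 upstream: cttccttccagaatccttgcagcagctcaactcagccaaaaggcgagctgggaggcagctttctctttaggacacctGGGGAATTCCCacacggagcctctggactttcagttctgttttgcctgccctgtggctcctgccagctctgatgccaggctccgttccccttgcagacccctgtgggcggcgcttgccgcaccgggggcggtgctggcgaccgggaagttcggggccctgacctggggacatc
Tlr3 upstream: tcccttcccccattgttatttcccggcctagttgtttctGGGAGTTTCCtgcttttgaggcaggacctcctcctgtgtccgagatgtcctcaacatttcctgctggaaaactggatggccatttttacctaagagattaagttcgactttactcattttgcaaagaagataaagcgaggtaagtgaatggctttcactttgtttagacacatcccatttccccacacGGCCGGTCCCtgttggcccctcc
Tlr6 upstream: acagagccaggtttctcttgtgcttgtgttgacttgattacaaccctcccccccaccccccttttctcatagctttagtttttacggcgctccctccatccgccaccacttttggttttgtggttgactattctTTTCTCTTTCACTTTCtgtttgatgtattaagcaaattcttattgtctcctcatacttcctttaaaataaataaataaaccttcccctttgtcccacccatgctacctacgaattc

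The *Tlr2* window holds overlapping matches that begin 173 and 172 bases before the start, together the run in capitals. *Tlr3* has NF-κB-like letters 211 and 23 bases before its start, and the window holds no exact match to the letters of the interferon element. Near matches were not searched for, so this does not show that the element is absent. In the *Tlr6* window the interferon element was matched on the opposite strand at 116 and 110 bases, with overlap, and the window before the other *Tlr6* start, further upstream, has NF-κB-like letters 99 bases before it. *Tlr5* has NF-κB-like letters 20 bases before its start. PU.1 is a transcription factor of macrophages, and its core letters lie before a *Tlr1* start (23 bases), *Tlr8* (77), *Tlr9* (112) and *Tlr13* (83). STAT-like letters lie before another *Tlr1* start (228 bases) and before *Tlr8* (106). Matches are letters only and no measure of binding.

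The genes that the receptors work with were followed through 4 lists of 31 genes in all. In CRL1505 + LPS, 2 of 28 compared were at least 2-fold higher than in LPS and 0 lower, beside 9.92% and 8.41% of all genes, with a median log2 ratio of 0.30 against 0.01. For CRL1506 the counts were 3 and 0 of 29, beside 5.67% and 3.52%, with a median of -0.03 against -0.06. Between the strains, 1 of 29 was higher in CRL1505 + LPS and 1 lower, beside 9.01% and 7.46%, with a median of 0.22 against 0.03. The other receptors on the array, *Tlr11* and *Tlr12*, were at or near the background.

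Of 6 genes for co-receptors and lipid transfer, *Cd14*, which hands LPS to the TLR4 complex, had log2 ratios to LPS of 0.15 for CRL1505 and -0.27 for CRL1506. *Ly96*, which encodes MD-2, had 0.30 and 1.05, but its probes ranged from -0.21 to 1.05 for CRL1506. *Cd180*, a receptor-like protein of the TLR4 group, had 0.60 and 2.22, with probes from 0.60 to 2.22 for CRL1506, and was lower in CRL1505 + LPS than in CRL1506 + LPS by its brightest probe (-1.61), while its probes ranged from -1.61 to 0.25. *Lbp* did not rise above background on the 3 arrays.

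Of 11 genes for chaperones, trafficking and cleavage, *Ctsk*, a lysosomal cysteine protease, was at least 2-fold higher with both strains, at 1.54 for CRL1505 and 2.32 for CRL1506, and 0 were lower. *Ctsk* rested on 1 probe, and both ratios share its low log2 level of -3.30 on the LPS array. The lowest value well above background there was -4.48. Among 12 adapters and kinases, *Irak3*, an inhibitor of signalling from MyD88, was higher with CRL1505 (1.68, with probes from 1.18 to 1.68). With CRL1506 it had 0.75, with probes from 0.74 to 1.31. Between the strains its probes ranged from -0.13 to 0.93, so that the sign of that difference depended on the probe. *Myd88* had 0.85 and -0.36, and was 1.21 higher in CRL1505 + LPS than in CRL1506 + LPS. *Ticam1*, which encodes TRIF, had 0.29 and 0.05. Under other settings the ratio fell short of 2-fold at its nearest to 0 for *Ctsk* with CRL1505 (0.93) and *Ly96* with CRL1506 (0.42), and between the strains for *Myd88* (0.81) and *Cd180* (-0.85). It stayed past 2-fold under the settings tried for *Ctsk* with CRL1506 (at least 1.43), *Cd180* with CRL1506 (at least 1.34) and *Irak3* with CRL1505 (at least 1.17). Over both ratios to LPS, the list genes nearest to *Tlr2* among 26 were *Sarm1*, at a Euclidean distance of 0.58, *Traf3* at 0.65 and *Slc15a4* at 0.88. Those nearest to *Tlr4* were *Nrros* at 0.33, *Hsp90b1* at 0.40 and *Slc15a4* at 0.41. These distances rest on 2 ratios that share the LPS array, and for *Tlr4* on the brightest probe, whose value for CRL1506 the RefSeq probes did not share.

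**Figure D4:**
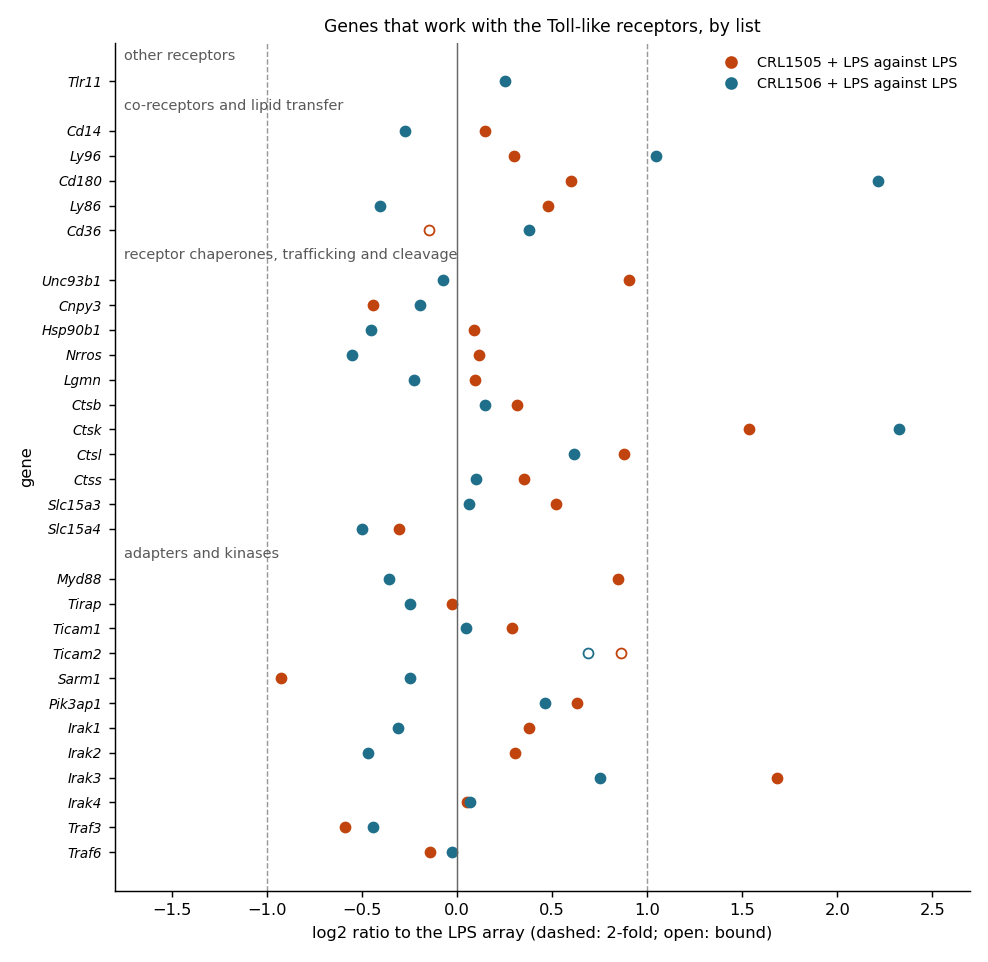
Log2 ratios to LPS of the genes that work with the Toll-like receptors, by list, for CRL1505 + LPS and CRL1506 + LPS, with open points for bounds. Past the dashed 2-fold lines lie *Ctsk* with both strains, *Irak3* with CRL1505, and *Ly96* and *Cd180* with CRL1506.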

How the data were processed

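The scanner output deposited by the authors was made with Feature Extraction 12.0.3.1 according to the file headers, while the design text gives an earlier version. The processed signal deposited by the authors is an intensity from which a fitted spatial background surface and a multiplicative trend have been taken, with no normalization between arrays. The authors also deposited a table of normalized log2 values, with a median of 6.77 on each array.

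From the log2 intensity, the array's 75th percentile over gene spots was subtracted. Outlier spots (467 in LPS, 241 in CRL1505 + LPS, 274 in CRL1506 + LPS and 0 of the receptors) were left out, and repeated spots were averaged. A gene was represented by its brightest probe. Probes not well above background on either compared array were left out. With 1 side above background, the other was set to the higher of its own value and the lowest value above background on its array, which gives a bound, and no fold was given where this bound was under 1. Genes were counted at 2-fold. The methods' t-test could not be run on single arrays, whose number, 1 for each condition, sets the precision.

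The members and lists were chosen with earlier results of these data known. All 10 receptors are named, and from the lists *Cd14*, *Ly96*, *Myd88* and *Ticam1*, genes past 2-fold and the 3 nearest to *Tlr2* and to *Tlr4*. *Tlr12*, *Tlr11* and *Lbp* are named beside their lists, outside that rule. The alternatives were a median shift, quantile and cyclic loess normalization, a 75th percentile over probes well above background on all 3 arrays, spike-in scaling on 8 probes, normexp background correction with an offset of 50, the deposited log2 table, dim probes kept or left out, the mean over probes, outlier spots kept, uneven spots left out, and thresholds of 1.5-fold and 4-fold. Python 3.11.15, pandas 2.3.3, NumPy 2.4.6, R 4.3.3 and limma 3.58.1 were used, and the steps were tested on simulated data. Probe coordinates on mm9 were taken from the files, and exon and UTR annotation was not used here.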

Additional observations from a re-analysis of the deposited data

Results flagged for a closer look

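*Tlr7* and *Tlr8* lay above LPS alone with CRL1505 and below it with CRL1506. The log2 ratio was 0.76 and -0.41 for *Tlr7*, and 0.93 and -0.53 for *Tlr8*, each by the brightest probe of the gene. They were picked out because the only array of each strain moved the opposite way, and the difference was not tested. The other *Tlr8* probes, which were much dimmer, did not place the strains in that order, as described above.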

How the results depend on the processing

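The scaling of the arrays and the threshold changed how many receptors passed 2-fold. After the median shift, the count against LPS was 5 higher and 1 lower for CRL1505 and 0 higher and 1 lower (*Tlr4*) for CRL1506, and 5 were higher with CRL1505 than with CRL1506. With the spike-in scaling, 0 were higher with CRL1505 than with LPS, and 1 (*Tlr8*) was higher than with CRL1506. The mean over probes left 0 higher for CRL1506, and between the strains it kept the count of 3 with *Tlr1*, *Tlr3* and *Tlr6* in place of *Tlr6*, *Tlr7* and *Tlr8*. With dim probes kept, *Tlr5* joined *Tlr2* and *Tlr13* as lower with CRL1505, which makes 3. At 1.5-fold, 5 were higher with CRL1505 against LPS and 5 against CRL1506, and 2 (*Tlr2* and *Tlr4*) were lower with CRL1506. At 4-fold each count was 0. The median log2 ratio of all genes above background on both arrays, 0.06 for CRL1505 and -0.06 for CRL1506, was 0.35 and -0.26 after the median shift and -0.45 and -0.17 with the spike-in scaling, and between the strains it went from 0.09 to 0.58 and -0.31. With other probes the difference between the strains took the opposite sign for genes past 2-fold. It was -0.10 for *Tlr7* (a bound) and -0.43, -0.44 and -0.26 for *Tlr8*. For *Tlr4*, which was under 2-fold at 0.76, it was -0.83 and -0.19. These *Tlr8* probes and the *Tlr4* probe at -0.83 had levels of at most 0.26. Of 364 values of single receptors under the alternatives, 288 stayed within an SD between probes of 0.23 and 76 did not. That SD was used for the comparison of the strains too. Of the 364 values, 26 had another sign than the value reported, 4 of them for a value past 2-fold. The cause was not tested. The 288 include values that could not move, since no receptor spot was an outlier or uneven and most probes were not dim. Their number is therefore no measure of stability. No paired analysis was possible because each condition had 1 array, and for that reason no replicate could be left out. *Tlr5* and 1 *Tlr7* probe were limited by signal over background.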
